A study of Homo sapiens with 6 samples.

Results

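Integrins are cell surface receptors built from an alpha and a beta subunit, and the subunits expressed on white blood cells let them hold on to vessel walls, stroma and each other. ITGB2 (CD18) is the shared beta chain of LFA-1 with ITGAL (CD11a), of Mac-1 with ITGAM (CD11b) and of the CD11c receptor with ITGAX. ITGB1 and ITGB7 compete for ITGA4, giving VLA-4 and the gut-homing receptor LPAM-1, and ITGB7 also pairs with ITGAE (CD103), while ITGA5 and ITGA6 pair with ITGB1 as receptors for fibronectin and laminin. In B cells LFA-1 and VLA-4 are known for holding the cell on antigen-bearing and stromal cells that display ICAM1 and VCAM1.

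The members were the 10 genes of this group chosen by symbol (ITGAM, ITGAL, ITGAX, ITGB2, ITGA4, ITGB1, ITGB7, ITGAE, ITGA6 and ITGA5). All 10 had a row among the 26485 gene symbols of the deposited count table. The RNA came from OCI-LY8, an established diffuse large B-cell lymphoma line grown in RPMI with serum, in 6 libraries. A non-targeting guide (sgNTC1, genotype labelled WT, here control) was present in 3 of them, and the other 3 had a guide against the histone methyltransferase gene SETD1B (genotype labelled SETD1B knockout). The series' design text describes its cells as KMT2D mutant but names another line, OCI-LY19, so the KMT2D status of these cells was not taken from it. The labels give the same guide name to all libraries of a group and do not say whether the cells are a pool or a clone, nor that the replicates were separate cultures. P-values therefore measure the spread between these libraries, which may be technical, and SETD1B loss cannot be told apart from other differences between the 2 cell populations.

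Depth ran from 28726108 to 34453249 counts per library, so that 3 counts, the limit that a count of 0 allows, stood for 0.087 to 0.104 CPM, the count scaled to a common library total. The SETD1B transcript level was not lower in the knockouts. It stood at 59.8, 54.8 and 53.8 CPM in the controls and at 87.4, 90.2 and 55.1 CPM in the knockouts (log2 0.47, SE 0.18, edgeR adjusted p = 0.14), and without knockout replicate 3 it was higher (log2 0.66, edgeR adjusted p = 8.1e-07). A gene-level count does not check an edit of the coding sequence. Of 16 B-cell identity markers 15 could be tested, and their summed level was 5104 to 5148 CPM in the controls and 5252 to 6468 CPM in the knockouts. PAX5, BCL6, CD22 and S1PR2 rose, while MS4A1 (441 to 259 CPM, edgeR adjusted p = 0.0013), EBF1 and FCRLA fell. Across all genes tested 15.0% changed. Knockout replicate 3 stood apart by GC content. Against the mean of knockout replicates 1 and 2, its median log2 difference was 0.20 in the tenth of genes lowest in GC and -0.79 in the tenth highest in GC, so results that rest on it are given with and without it.

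Of the 10 members, 8 had enough counts to be tested, and 2 of these 8 changed at an edgeR adjusted p under 0.05, both lower in the knockouts. Among all 12907 genes tested 15.0% changed, 9.33% lower and 5.71% higher. The members that fell were ITGAM, 3.05-fold, and ITGB7, 2.19-fold. ITGAL, the partner that makes LFA-1, and ITGAE did not pass, and neither did ITGA4, ITGB1, ITGB2 and ITGA5. The median log2 fold change over the 8 members was -0.17, against -0.01 over all genes tested. In 5 of the 8 members all knockout values lay below all control values and in 1 they lay above, while 21.3% of all genes tested were separated downward, 16.5% upward and 37.7% in either direction. In bulk RNA, fewer cells with a transcript and less of it per cell cannot be told apart.

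**Figure D1:**
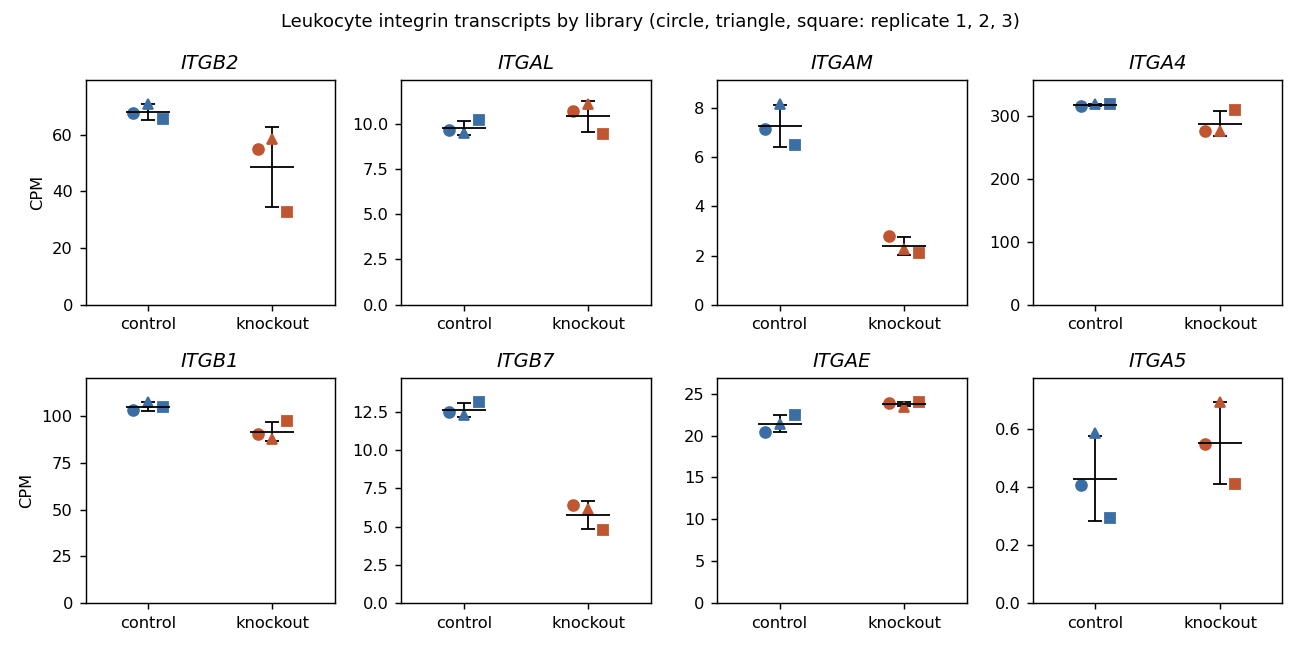
CPM of the 8 tested integrin genes in each library, with circle, triangle and square for replicates 1, 2 and 3, bars for the mean and SD (n = 3 per group), and a separate linear axis from 0 for each gene. ITGAM and ITGB7 show separated groups with the lower values in the knockouts, and for ITGB2 knockout replicate 3 lies well below the other libraries.

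The promoters of the 2 genes that fell are shown first, since they are the sequences nearest to the changes. They are RefSeq sequences of build GRCh38.p14, read 5′ to 3′ from 250 to 61 bases before the RefSeq start, a window of 190 bases. The ITGAM window is chr16:31259725-31259914 on the plus strand and the ITGB7 window is chr12:53207312-53207501 on the minus strand. Capitals mark letters matched by GAGGAA, a core bound by the ETS factor PU.1, or by GGGCGG, the GC box bound by SP1.
ITGAM: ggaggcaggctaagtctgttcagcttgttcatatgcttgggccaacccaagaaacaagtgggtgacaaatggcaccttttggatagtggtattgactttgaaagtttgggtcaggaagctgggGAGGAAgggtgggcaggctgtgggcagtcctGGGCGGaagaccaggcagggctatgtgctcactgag
ITGB7: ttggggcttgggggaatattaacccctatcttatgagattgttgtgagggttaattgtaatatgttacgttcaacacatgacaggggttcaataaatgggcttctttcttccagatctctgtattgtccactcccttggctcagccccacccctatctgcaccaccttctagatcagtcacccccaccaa
The windows were searched on both strands for these motifs, for the RUNX core TGTGGT, for the E-box CACCTG and for the AP-1 site TGACTCA. ITGAM held 1 match to GAGGAA and 1 to GGGCGG, and the matches do not overlap. ITGB7 held none of the 5, so the promoter windows of the 2 genes shared no match. Among 35116 promoter windows of the same length 18.2% held GAGGAA, 33% GGGCGG, 8.49% TGTGGT, 14.3% CACCTG and 3.03% TGACTCA. Among the members, GAGGAA was also found before ITGAE and in 1 of 2 windows of ITGB1, genes that did not pass the test. GGGCGG was also found before ITGA5 and in 1 of 2 windows of ITGB1, neither of them called. It was found as well in 1 of 2 windows of ITGA6, which had too few counts to be tested. A match is a description of letters and not of a bound site. RefSeq promoters were matched for 7 of the 10 members.

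Compared per kilobase of merged exons, the control levels ran in the order ITGA4, ITGB1, ITGB2, ITGAE, ITGB7, ITGAL, ITGAM, ITGA5, ITGA6 and ITGAX. ITGA4 stood at 40.2 ± 0.243, ITGB1 at 17.5 ± 0.368 and ITGB2 at 10.0 ± 0.409 CPM per kilobase (SD, n = 3), while ITGAL (1.52 ± 0.06) and ITGAM (1.28 ± 0.148) were far lower. Down to ITGAM and ITGA5, neighbours in this order did not overlap between the 3 control libraries, while ITGA6 and ITGAX were both at 0 in control replicate 1. In CPM, ITGA4 lay above 95.8% and ITGAM above 25.8% of the genes tested. In the knockouts ITGB7 (1.29 ± 0.201 CPM per kilobase) stood below ITGAL (1.61 ± 0.137), the reverse of the controls (2.83 ± 0.0996 and 1.52 ± 0.06). ITGB7 shares 1886 of its 4481 merged exon bases with ZNF740 on the opposite strand, and the counting strand is not known. Its place in these orders is therefore uncertain.

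Among the alpha chains that pair with ITGB2, ITGAM changed and ITGAL did not pass. ITGAM (chromosome 16, 31259967 to 31332892, plus strand, GENCODE 29 on hg38), known as an adhesion and complement receptor chain of myeloid and NK cells and of some B cells, read 7.16, 8.19 and 6.51 CPM in the controls and 2.78, 2.25 and 2.12 CPM in the knockouts. Every knockout value was below every control value, and the reads behind them were 683 in the controls and 218 in the knockouts. ITGAM fell 3.05-fold (log2 -1.61, SE 0.15, edgeR adjusted p = 7.2e-04). It passed in all 16 alternatives, with log2 values from -1.72 to -1.52.

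ITGAL (chromosome 16, 30472658 to 30523185, plus strand) read 9.68, 9.5 and 10.2 CPM in the controls and 10.7, 11.1 and 9.43 CPM in the knockouts. The groups overlapped, and the log2 fold change of 0.09 had a 95% interval from -0.14 to 0.32 (edgeR adjusted p = 0.63). A difference the size of that of ITGAM lay outside this interval. ITGAX (chromosome 16, 31355134 to 31382997, plus strand), the CD11c chain of dendritic cells and of some B cells, had 0 counts in every library, which allows up to 0.087 to 0.104 CPM, covering counting error only. ITGAD, its neighbour in the same gene cluster, held 0 or 1 count in each library. Of the 3 members that pair with ITGB2, 2 were therefore detected, and the ITGAM share of their summed level per kilobase was 45.7%, 49.5% and 42.0% in the controls and 22.8%, 18.7% and 20.4% in the knockouts.

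ITGB2 (chromosome 21, 44885953 to 44931989, minus strand) was lower in each knockout library but did not pass. It read 67.6, 70.9 and 65.4 CPM in the controls and 54.9, 58.5 and 32.6 CPM in the knockouts. The groups did not overlap, and knockout replicate 3 was far below the other 2 knockouts. The log2 fold change was -0.48 (SE 0.20, 95% interval -0.97 to 0.00, edgeR adjusted p = 0.17). Without knockout replicate 3 it was -0.26 and passed (edgeR adjusted p = 0.00095), and after a correction for GC content it was -0.455 and also passed (edgeR adjusted p = 0.00073). ITGB2 is the member richest in GC, at 60% of its longest transcript, and its log2 difference between knockout replicate 3 and the mean of the others was -0.80, beside a median of -0.51 for genes with a GC content of 58% to 61.3%. ITGB2-AS1, an antisense gene that shares 303 exon bases with ITGB2, held 12 to 31 reads per library. Whether counting used the strand is not stated, and ITGB2 itself held 1029 to 2331 reads.

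Chromosome 21 as a whole was lower in the knockouts. Of its 122 other tested genes 71 fell and 1 rose, with a median log2 fold change of -0.42, and 47 of them had a lower value than ITGB2. Relative to the control mean, ITGB2 differed by -0.31, -0.22 and -1.06 on the log2 scale in knockout replicates 1, 2 and 3, where the median of the other chromosome 21 genes differed by -0.38, -0.38 and -0.41. ITGB2 was thus 0.08 and 0.17 above that median in replicates 1 and 2 and 0.65 below it in replicate 3. The other members' chromosomes had medians from -0.02 to 0.01, with 5.71% to 12.6% of genes lower. Copy number was not measured here, so a change of gene dosage and a change of expression of ITGB2 cannot be told apart.

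**Figure D2:**
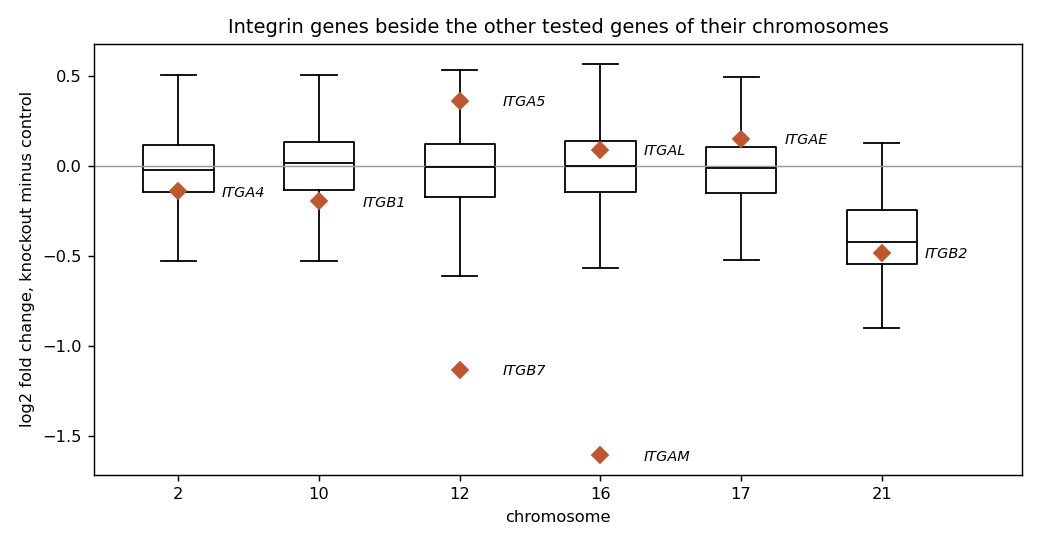
Log2 fold change (knockout minus control) of all tested genes on the chromosomes that hold tested integrin genes, with boxes for the quartiles of the other genes (whiskers to 1.5 times the box, points beyond not drawn) and diamonds for the members. ITGB2 lies inside the box of chromosome 21, whose median is -0.42, whereas ITGAM and ITGB7 lie below the whiskers of chromosomes 16 and 12.

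Among the beta chains of ITGA4, ITGB7 fell. ITGB7 (chromosome 12, 53191318 to 53207307, minus strand) read 12.5, 12.3 and 13.2 CPM in the controls and 6.41, 6.17 and 4.75 CPM in the knockouts. The groups were widely separated, and ITGB7 fell 2.19-fold (log2 -1.13, SE 0.13, edgeR adjusted p = 0.0017). It passed in all 16 alternatives, with log2 values from -1.20 to -1.01. ITGB7 shares 1886 of its 4481 merged exon bases with ZNF740, a zinc finger gene on the opposite strand. ZNF740 read 73.8 ± 0.957 and 77.2 ± 1.91 CPM and did not pass (log2 0.06, edgeR adjusted p = 0.47).

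ITGB1 and ITGA4, the chains of VLA-4, were slightly lower in every knockout library. ITGB1 (chromosome 10, 32900319 to 33005792, minus strand) read 103, 107 and 105 CPM in the controls and 90.2, 87.5 and 97.3 CPM in the knockouts. ITGA4 (chromosome 2, 181457202 to 181536187, plus strand) read 315, 319 and 318 CPM and then 276, 276 and 310 CPM. Neither passed in the fit of all libraries, with log2 fold changes of -0.20 (SE 0.06, edgeR adjusted p = 0.067) for ITGB1 and -0.14 (SE 0.06, edgeR adjusted p = 0.16) for ITGA4. Without knockout replicate 3 both passed (log2 -0.24, edgeR adjusted p = 0.00027, and log2 -0.20, edgeR adjusted p = 0.00011), and both passed after the GC correction (log2 -0.21 and -0.14, edgeR adjusted p = 9e-04 and 0.0064). In these settings the count of members that fell was 5 instead of 2. Without knockout replicate 3, 44.4% of all genes were called in either direction, and 2978 of 13063 tested genes were called lower. With the GC correction 36.3% were called in either direction, and 2443 of 12907 were called lower. ITGB1 also passed with a filter of 5 CPM in 3 libraries (edgeR adjusted p = 0.045).

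ITGAE (chromosome 17, 3714628 to 3801243, minus strand), the chain that pairs with ITGB7 on lymphocytes at epithelia, read 20.4, 21.4 and 22.5 CPM in the controls and 23.8, 23.5 and 24 CPM in the knockouts. All knockout values were above all control values, but the difference did not pass (log2 0.15, SE 0.07, edgeR adjusted p = 0.19). It shares 427 exon bases with HASPIN (GSG2 in the table), which read 49.9 and 47.8 CPM. Reads cannot be split between overlapping genes if strand was not used.

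ITGA5 and ITGA6, the alpha chains that pair with ITGB1 as fibronectin and laminin receptors, were near the lower limit of detection. ITGA5 (chromosome 12, 54395261 to 54419460, minus strand) had 14, 17 and 9 counts in the controls and 17, 20 and 13 in the knockouts, with overlapping groups (log2 0.36, SE 0.34, edgeR adjusted p = 0.55). Its 95% interval from -0.43 to 1.15 holds losses as well as gains. ITGA6 (chromosome 2, 172427354 to 172506282, plus strand) had 0, 2 and 6 counts in the controls and 1, 0 and 0 in the knockouts, too few to be tested.

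**Figure D3:**
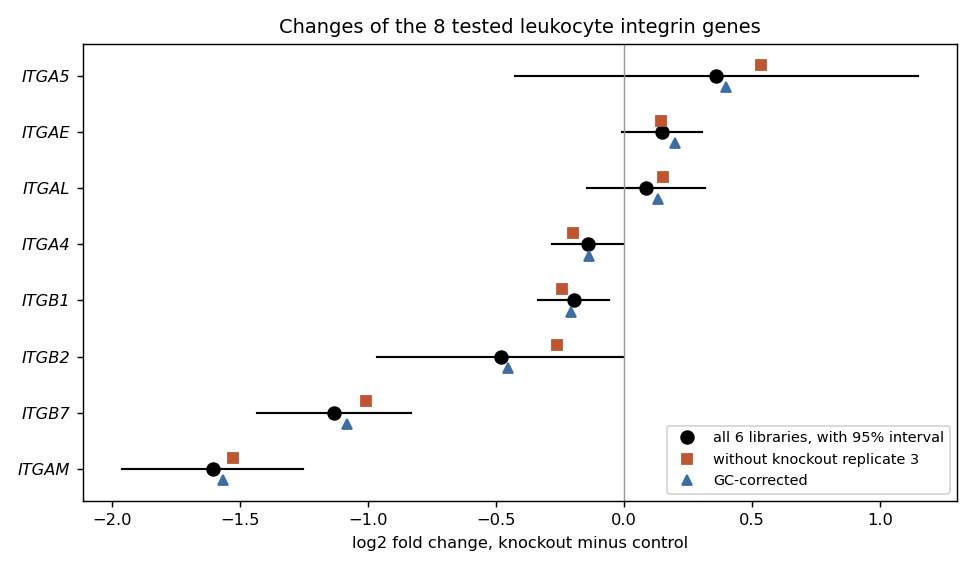
Log2 fold change (knockout minus control) of the 8 tested members with its 95% interval from all 6 libraries (black circles), without knockout replicate 3 (squares) and after the GC correction (triangles). ITGAM and ITGB7 stay below -1 in each, while ITGB2 moves from -0.48 to -0.26 without knockout replicate 3.

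Ratios of an alpha to a beta transcript within a library need no scaling between libraries. For these 6 ratios, and for 2 ratios between alternative partners, the exact two-sided permutation test over 3 against 3 libraries cannot go below p = 0.1 (0.11 after adjustment over the 8). ITGA4 over ITGB7 on the log2 scale went from 4.65 ± 0.051 to 5.65 ± 0.331, a 2-fold shift (exact permutation p = 0.1). It read 5.43 and 5.485 in knockout replicates 1 and 2 and 6.029 in replicate 3, so its size rests in part on replicate 3. A ratio does not remove a GC trend, and GC content is 44.1% for ITGA4 and 59.4% for ITGB7. ITGAE over ITGB7 went from 0.76 ± 0.047 to 2.05 ± 0.247, 2.45-fold (exact permutation p = 0.1). Here too knockout replicate 3 was the highest, at 2.337 beside 1.894 and 1.927 in replicates 1 and 2. ITGA4 over ITGB1 stood at 1.60 ± 0.023 and 1.65 ± 0.029, a difference of 0.05 (exact permutation p = 0.1).

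Of the LFA-1 and Mac-1 pairs, ITGAL over ITGB2 went from -2.79 ± 0.113 to -2.18 ± 0.341 and ITGAM over ITGB2 from -3.23 ± 0.107 to -4.31 ± 0.379 (exact permutation p = 0.1 for both). Because ITGB2 was low in knockout replicate 3, these ratios were -1.79 and -3.94 there, above the other knockouts. ITGA5 over ITGB1 overlapped between groups (difference 0.59, exact permutation p = 0.2). The ratios of the alternative partners, chosen after the data were seen, were lower in all knockouts, by 1.70 for ITGAM over ITGAL and by 0.95 for ITGB7 over ITGB1 (log2 -1.70 and -0.95, exact permutation p = 0.1 for both). ITGB7 over ITGB1 read -3.81 and -3.83 in knockout replicates 1 and 2 and -4.36 in replicate 3. Per kilobase, ITGB7 made up 14%, 13.3% and 14.4% of the ITGA4 beta partners in the controls and 8.71%, 8.64% and 6.14% in the knockouts. The size of these shares is uncertain, because ITGB7 shares exon bases with ZNF740 and the counting strand is not known.

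**Figure D4:**
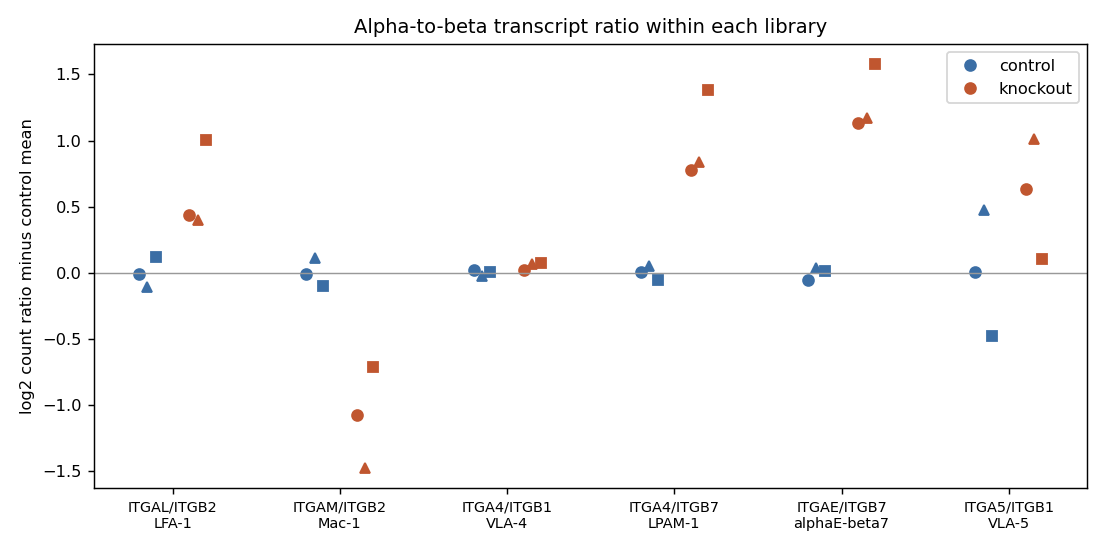
Log2 ratio of the alpha to the beta count in each library minus the control mean of that ratio, for 6 receptors, with circle, triangle and square for replicates 1, 2 and 3. The ITGA4 to ITGB1 ratio stays within 0.1 of the control mean, whereas both ratios over ITGB7 lie above it and ITGAM over ITGB2 lies below it in all knockouts.

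Of the 3 nearest tested genes on each side of ITGAM only TRIM72, a membrane repair gene, fell, from 4.48 ± 0.486 to 1.14 ± 0.334 CPM (log2 -1.97, edgeR adjusted p = 0.0015). PYCARD, the inflammasome adaptor that lies just beyond it, had a log2 fold change of -0.13 and ARMC5 on the other side one of 0.14, with edgeR adjusted p of 0.75 and 0.79. Around ITGB7 none of the 6 neighbours passed (adjusted p from 0.27 to 1), with log2 values from -0.56 for RARG, a retinoic acid receptor, to 0.10 for ESPL1. RARG stood at only 0.55 CPM in the controls.

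Profiles over the 6 libraries closest to ITGAM, by Euclidean distance of centred log2 CPM among 10028 genes with at least 5 CPM, were those of CD4 (distance 0.28), the immune receptor gene CD300LF (0.28) and LINC00426 (0.29). CD4 fell from 50.3 to 15.3 CPM and CD300LF from 9.84 to 3.03 CPM (edgeR adjusted p = 1.8e-04 and 2.5e-04). Closest to ITGB7 were FER1L4 (0.10), the metalloreductase gene STEAP3 (0.11) and LOC100129046 (0.18), with log2 fold changes of -1.18, -1.17 and -1.21. Since only 6 libraries in 2 groups enter, a small distance mainly means a similar group difference.

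ITGAM is also used as a myeloid marker. Of 20 other myeloid markers 6 could be tested, and LYZ, TYROBP and CST3 fell while CD68, FCER1G and SPI1 did not pass. Their summed level was 52.2 to 62.5 CPM in the controls and 36.4 to 63.7 CPM in the knockouts. MPO, ELANE, S100A8, S100A9, CEBPA and MNDA had 0 counts in all libraries and CD14 6 to 22; of the others, SPI1 stood at 39.1 and 40.8, CST3 at 13.3 and 8.14, TYROBP at 1.83 and 0.93 and LYZ at 1.15 and 0.47 CPM. The part of myeloid cells in the ITGAM result was not tested. In the T-cell list 1 of 4 tested genes fell, which is CD4, and 5 genes including CD3D and TRAT1 were at 0, while the summed level was 80.2 to 81.4 CPM in the controls and 43.1 to 51.9 CPM in the knockouts. In the NK-cell list PRF1, the only gene tested, fell, and NCAM1, KLRD1, NCR1, GZMB and EOMES were at 0. In the epithelial, endothelial and stromal list the 3 tested genes, PECAM1, DCN and LUM, were called higher. DCN had 1, 0 and 0 counts in the controls and 14, 13 and 11 in the knockouts. LUM had 0 in every control and 66, 59 and 98 in the knockouts. Both could be tested only through their knockout counts, so a fall could not have been called. The untested COL1A1 (11, 9 and 12 counts, then 4, 4 and 6) and PDGFRB (5, 1 and 1, then 0) were lower in all knockouts. Of the megakaryocyte and erythroid list 7 of 14 were at 0. Beside these marker calls, 9.33% of all genes tested fell and 5.71% rose.

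The other integrin subunits gave 6 tested genes of 16, none of them called, where 15.0% of all genes tested were called. ITGAV, which pairs with several beta chains as a matrix receptor, was the highest at 25 and 23.9 CPM (log2 -0.07, edgeR adjusted p = 0.69), and ITGA7, ITGA10, ITGA11, ITGA2B and ITGB4 all stood under 2 CPM in both groups. ITGA1, ITGA2, ITGA3, ITGA9, ITGAD, ITGB3 and ITGB8 had at most 5 counts in any library, and ITGA8 and ITGB6 had 0 throughout. Without knockout replicate 3, where 44.4% of all genes were called, 1 of the list rose.

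**Figure D5:**
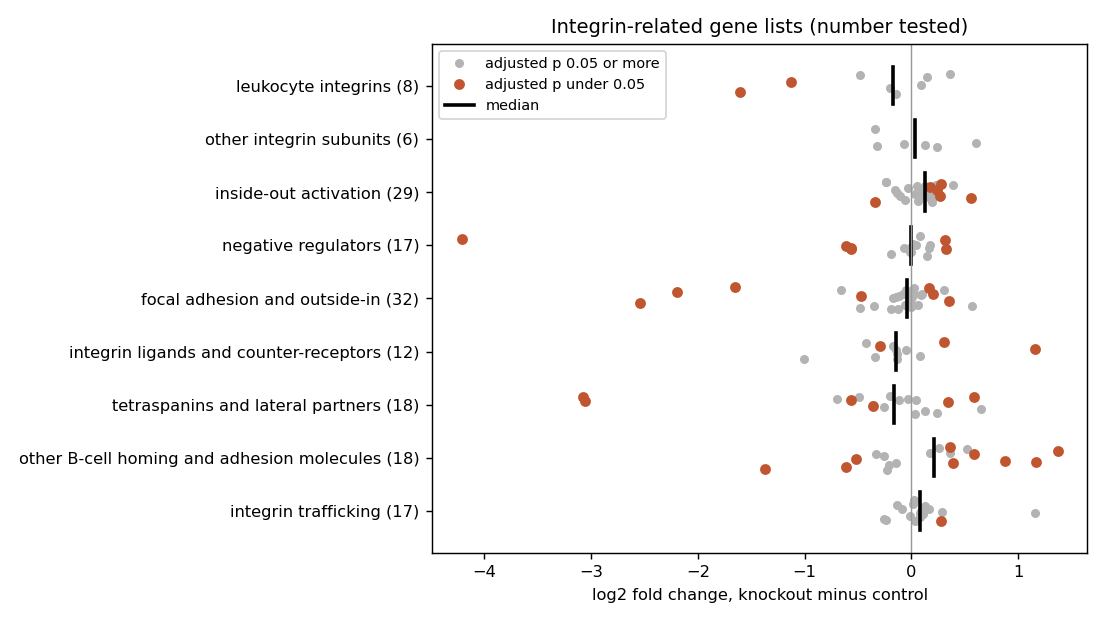
Log2 fold change (knockout minus control) of the tested genes in 9 lists, with orange points for an edgeR adjusted p under 0.05, grey points for others and a black bar at the median. All medians lie between -0.17 and 0.21, and the focal adhesion, negative regulator and tetraspanin lists hold a few genes with far larger losses. Large changes lie in other lists too, such as S1PR2 (1.37) and GPR183 (-1.37) among homing molecules, LAMA3 (1.16) among ligands and ITGAM (-1.61).

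In the list of genes that act on integrins from inside the cell, 5 genes rose and 1 fell among 29 tested, with a median log2 fold change of 0.12. Across all genes tested 5.71% rose and 9.33% fell. The gene that fell was TLN2, a talin that binds integrin beta tails, from 79.7, 74.2 and 76.6 CPM to 63.7, 64.8 and 54.0 CPM (log2 -0.34, edgeR adjusted p = 0.033). Its more abundant relative TLN1 (308 and 342 CPM, log2 0.15) and the kindlin FERMT3 (200 and 226 CPM, log2 0.17) did not pass, and neither did the small GTPases RAP1A and RAP1B, their effector RASSF5 or APBB1IP, the adaptor that recruits talin. FERMT3 had 7772 and 8111 counts in knockout replicates 1 and 2 and 4548 in replicate 3, beside 5731 to 7311 in the controls. Those that rose were RASGRP1 (1.47-fold) and RAPGEF5 (1.21-fold), both exchange factors for RAS or RAP, CBLB (1.21-fold), a ubiquitin ligase known for restraining LFA-1, and, named after their values were seen, CYTH1 (log2 0.24) and PLCG2 (log2 0.17). RASGRP1, RAPGEF5, CBLB and TLN2 each missed the threshold in 4 of the 6 settings that left out a library. These were the settings without a control or without knockout replicate 1, where only 5.98% to 8.45% of all genes were called. Without knockout replicate 3, where 44.4% of all genes were called, 13 rose and 7 fell.

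Negative regulators held 4 genes that fell and 2 that rose among 17 tested, with a median of -0.01. Across all genes tested 9.33% fell and 5.71% rose. RASA3, which turns off RAP1, fell 1.48-fold and the tensin gene TNS3 1.48-fold, while FAM65B, an inhibitor of RHOA also called RIPOR2, rose 1.25-fold. DOK2, a docking adaptor below 1 CPM named after its value was seen, fell from 29, 23 and 31 counts to 2, 1 and 1 (edgeR adjusted p = 5.3e-04). SIPA1L2, also named afterwards, rose with a log2 fold change of 0.31. TNS3 missed the threshold with DESeq2 (adjusted p = 0.078) and in 4 of the 6 settings that left out a library. RASA3 and FAM65B each missed it in 3 of the 6, when a control was left out (edgeR adjusted p up to 0.063 and 0.059). With a control left out 5.98% to 6.44% of all genes were called, and without knockout replicate 1, where TNS3 also missed it, 8.45%. Without knockout replicate 3, where 44.4% of all genes were called, 6 of this list rose and 4 fell.

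Among genes that act after integrins bind, 4 fell, 3 rose and 25 did not pass, with a median of -0.04. Beside them, 9.33% of all genes tested fell and 5.71% rose. PARVB, a parvin that links integrin-linked kinase to actin, fell 4.59-fold from 12.7, 11.4 and 13.1 CPM to 3.04, 2.74 and 2.31 CPM (log2 -2.20, edgeR adjusted p = 1.3e-04). Its relative PARVG stood at 70.3 and 64.3 CPM (log2 -0.13, edgeR adjusted p = 0.60), and PARVA was at 0. FYN, a Src family kinase, fell 5.83-fold, the adhesion protein genes ZYX 3.14-fold and VCL 1.39-fold. The kinases PTK2B (82.4 and 102 CPM), LYN (186 and 185 CPM) and ILK (113 and 112 CPM) did not pass. PTK2B had 3433 and 3248 counts in knockout replicates 1 and 2 and 2575 in replicate 3, beside 2378 to 2801 in the controls. Named after their values were seen, ARHGEF7 (log2 0.36), GIT2 (0.21) and SYK (0.17) were the genes that rose. ZYX missed the threshold in 4 of the 6 settings that left out a library, with edgeR adjusted p up to 0.073. In those settings 5.98% to 11.6% of all genes were called. Without knockout replicate 3, where 44.4% of all genes were called, the list gave 7 genes higher and 8 lower.

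ICAM1, ICAM2 and ICAM3, the ligands of LFA-1, read 55.5, 39.6 and 90.1 CPM on average in the controls and 58.8, 29.5 and 71.0 CPM in the knockouts, and none passed (edgeR adjusted p = 0.72, 0.12 and 0.30). In knockout replicates 1, 2 and 3 ICAM2 had 1062, 923 and 696 counts and ICAM3 2446, 2453 and 1544. ICAM2 and ICAM3 were separated downward, as were 21.3% of all genes tested, and ICAM1 overlapped. The lowest value of ICAM2 and of ICAM3 was in replicate 3. VCAM1, MADCAM1, FN1, CDH1 and C3, ligands of VLA-4, LPAM-1, VLA-5, the ITGAE receptor and Mac-1, had 0 counts. Of 12 tested ligand genes 2 rose and 1 fell, beside 15.0% of all genes called, with a median of -0.14. CD47, a partner of integrins, rose 1.23-fold (207 to 256 CPM, edgeR adjusted p = 0.020), LAMC1, a laminin chain, fell 1.23-fold, and LAMA3, named after its value was seen, rose from 0.45 to 0.99 CPM. The calls of CD47 and LAMC1 ended in 4 of the 6 settings that left out a library, where 5.98% to 8.45% of all genes were called. Without knockout replicate 3, where 44.4% of all genes were called, 4 ligand genes were higher and 4 lower.

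Tetraspanins, which cluster integrins in the membrane, gave 4 genes lower and 2 higher of 18, with a median of -0.16. Across all genes tested 9.33% fell and 5.71% rose. CD151, the tetraspanin known for binding laminin receptors, fell 8.32-fold, from 6.29, 5.80 and 6.91 CPM to 0.81, 0.97 and 0.51 CPM (log2 -3.06, edgeR adjusted p = 2.2e-04). CD63 fell 1.48-fold and TSPAN3 1.29-fold, while TSPAN33 rose by 0.59 on the log2 scale, a call that ended in 2 of the 6 settings that left out a library. In those 2 settings 5.98% and 6.44% of all genes were called. CD9 (log2 0.35) rose and CD36 (0.67 to 0.08 CPM) fell, both named after their values were seen. The partners of ITGAM in this list, PLAUR, and of many integrins, SLC3A2, did not pass. The counts without knockout replicate 3, where 44.4% of all genes were called, were 6 higher and 7 lower.

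Other B-cell homing molecules included S1PR2 and CXCR5, receptors that position B cells in the follicle, and GPR183, which draws them to its edge. In this list of 18 tested genes there were 6 that rose and 3 that fell, with a median of 0.21. Across all genes tested 5.71% rose and 9.33% fell. S1PR2 rose 2.58-fold, the follicle receptor CXCR5 2.24-fold and ALCAM, an adhesion molecule, 1.84-fold (41.5 to 76.3 CPM, edgeR adjusted p = 4.2e-04). GPR183 fell 2.59-fold. CD44 had 0 counts in all libraries. In the integrin trafficking list 1 gene of 17 rose, RAB11A, a recycling GTPase (1.21-fold, edgeR adjusted p = 0.026), and 16 did not pass. The RAB11A call ended in 4 of the 6 settings that left out a library (edgeR adjusted p up to 0.13), where 5.98% to 8.45% of all genes were called. Leaving out knockout replicate 3 gave 8 higher and 6 lower among the homing molecules, and 5 higher and 5 lower in the trafficking list. In that setting 44.4% of all genes were called.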

How the data were processed

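RNA was measured in 6 libraries made with a stranded mRNA kit, per the labels. The authors deposited raw read counts per gene symbol; CASAVA 1.8, Trimmomatic, HISAT2, featureCounts, DESeq2 and hg38 are named in the submitters' processing notes, while no source used here gives the annotation or the counting strand. A second deposited table, of log2 values, was not used, and 0 per-sample columns of the count table were unused. Groups and replicate numbers came from the titles. edgeR 4.0.16 (R 4.3.3) was run on the whole table: filterByExpr, TMM scaling and a robust quasi-likelihood fit on group, with Benjamini-Hochberg adjustment over 12907 genes at 0.05. CPM uses TMM-scaled library sizes, and the SE is its size over the root of F. Same-numbered libraries did not deviate together (correlations 0.02, -0.15 and 0.14), so no pairing was used. Alternatives were other scalings and filters, DESeq2 1.42.0, limma-voom 3.58.1, a replicate block, a GC trend as an offset, leaving out each library and stricter thresholds. Positions, exon lengths and GC content came from GENCODE 29, matched for 23899 symbols directly and 701 through synonyms (GC known for 96.6% of tested genes). The fit was checked on simulated data. Named genes were all members and, per list, up to 4 called genes with at least 1 CPM and the greatest change, with up to 3 most alike profiles and the 3 nearest genes per side of called members. Members and lists were chosen with earlier results of these data known. A few genes of the lists are counted but not reported here by name.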

Additional observations from a re-analysis of the deposited data

How the results depend on the processing

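ITGAM and ITGB7 kept their direction and passed in all 16 alternatives tried, with edgeR, DESeq2 or limma adjusted p up to 0.0070 and 0.014. The count of members called, 2 in the fit of all libraries, was 5 after the GC correction and 2 to 5 when a library was left out, the 5 without knockout replicate 3. The count of all genes called, 1941, was 4685 after the GC correction, 828 at an adjusted p under 0.01, 403 with at least 2-fold change, and 779 to 5795 when a library was left out, the highest without knockout replicate 3. The cause was not tested. With the replicate block, 1326 genes and 2 members were called. The inside-out activation list then gave 0 genes higher and 0 lower and the trafficking list 0, and RASGRP1, TLN2, RAPGEF5, CBLB, TNS3 and RAB11A missed the threshold (edgeR adjusted p from 0.051 to 0.086). In the ratios the block left each difference as it was (exact sign-flip p = 0.25, the smallest it allows). The replicate numbers share only a label: their deviations did not correlate. Of the 8 tested members no direction turned in a called value. Depth limits ITGA5, ITGA6 and ITGAX, and the 3 libraries per group limit the ratio tests.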

Other observations

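Of the 4 tested T-cell markers CD4 was called, where 15.0% of all genes tested were called. CD4, whose profile is nearest to that of ITGAM, read 49.1, 52.2 and 49.6 CPM in the controls and 17.6, 15.4 and 13.0 CPM in the knockouts. PRF1, the pore protein of cytotoxic cells and the only tested NK-cell marker of 12, fell from 14.1 ± 0.841 to 3.42 ± 1.19 CPM (SD, n = 3) (log2 -2.04, edgeR adjusted p = 0.0026). CD8A read 6.69 and 4.58 CPM and did not pass (edgeR adjusted p = 0.054), nor did CD247 and LCK (edgeR adjusted p = 0.17 and 0.25). VAV1, an exchange factor downstream of antigen receptors and integrins, had 0 counts in every library, while its relative VAV3 read 29.1 and 31.0 CPM.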
